A study of Mus musculus with 7 samples.

Results

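The surface of CD11b-enriched mouse myeloid cells was read with a panel of 47 oligo-tagged antibodies, and all 47 antibodies of the deposited tag table enter the counts given here. Their tags were counted together with RNA in 4290 single cells, of 4527 cells listed in the authors' metadata. All mice were C57/Bl6, and every library was labelled as enriched for CD11b+ cells. The tumor-bearing libraries came from mice carrying tumors of LLC, a mouse lung carcinoma line, sampled on day 14, and gave tumor tissue (1917 cells), blood (354 cells), bone marrow (57 cells) and spleen (579 cells). The naive libraries came from mice without tumors and gave blood (814 cells), bone marrow (153 cells) and spleen (416 cells). Each tissue and state was 1 library, the labels do not say how many mice were pooled, and no difference below has a replicate check. The level of an antibody is its share, in percent, of all tag counts of a group of cells. Shares add up to 100, so when an abundant tag is lower the other shares together are higher. Where stated, a comparison is also given relative to its panel median, the median ratio of the 47 antibodies.

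Myeloid cells are sorted into types largely by proteins on their surface. In the mouse, monocytes leave the marrow with high Ly-6C and CD115, the receptor for colony-stimulating factor 1, and Ly-6C is lower on the patrolling monocytes, which carry the Fc receptor CD16.2. In tissues and tumors, monocytes give rise to macrophages and to cells with class II molecules of the major histocompatibility complex, which present antigen to T cells. An antibody tag reports binding at the cell surface, which follows protein abundance but also the affinity, labelling and background of each antibody, so shares are compared between cells and not between antibodies.

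The panel was dominated by 2 tags. Ly-6C, a small GPI-anchored protein of monocytes and other leukocytes, held 24.2% of all 11584404 tag counts, and CD11b, the integrin alpha chain used for the enrichment, held 19.4%. The next were H-2, the classical class I molecules (5.87%), CD115 (5.25%), CD36, a scavenger receptor for lipids (3.95%), and CD16-32, the low-affinity Fc receptors for IgG (3.93%). Together the 6 most counted tags made up 62.6% of all counts. The other 41 antibodies had under 2% each and 37.4% together, and 29 of them had under 1%. All 47 tags had at least 1 count in 3985 cells (92.9%), so detection did not separate cell types. CD11b had no count in 1 cell, while Itgam, its gene, had at least 1 UMI (a counted RNA molecule) in 3924 cells.

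Tag depth differed between libraries and clusters. The median cell held 6045 tag counts in tumor-bearing blood, which stood apart, and 1602 to 3151 in the other 6 libraries. Clusters are the authors' own and are called by their numbers, and the numbers equal those of a metadata column named for an RNA neighbour graph at resolution 1. The 15 clusters with at least 50 counted cells are used, from cluster 17 with 55 cells to cluster 0 with 607. Cluster 13, with 40 cells and a median of 106 tag counts, was the 1 counted cluster left out. Clusters 3, 5, 7, 8, 9, 10, 11 and 17 were over 90% tumor tissue cells and are called the tumor tissue clusters, and the others (0, 1, 2, 4, 6, 12 and 16) came from blood, spleen and marrow. Cluster 11 had a median of 7423 tag counts and 29673 RNA UMIs per cell, and it held 6.99% of the tumor tissue cells but 27.2% of that library's tag counts. Intervals in the text are exact 95% intervals for counting error only, and since the tags of 1 cell are not independent they are too narrow. Only 2 cell barcodes occurred in more than 1 library.

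RNA of marker genes placed the clusters, as CPM (each gene's share of all UMIs, scaled to 1000000) summed over each list. The 6 macrophage genes came to 9274 CPM in cluster 11, 3616 in cluster 8 and 2447 in cluster 3, against 463 CPM or less in the other 12 clusters. The 6 neutrophil genes reached 43905 CPM in cluster 12 and 3181 or less elsewhere. In cluster 12, 15 of 83 cells had at least 100 UMIs of S100a8, a gene on that list, so its summed tags are not those of such cells alone. Cluster 17 had 6925 CPM of the 6 dendritic cell genes, against 1276 in cluster 6, the next highest. That list includes H2-Eb1, a class II gene, so its sum is not independent of class II. Cluster 4 had 2572 CPM of the 6 non-classical monocyte genes, against 1126 or less elsewhere. The 5 monocyte genes were high in all 15 clusters, from 2108 CPM in cluster 4 to 6122 CPM in cluster 0. The 5 T and NK cell genes found in the table stayed at 8.64 CPM or less.

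Over the 15 clusters, 13 of 47 antibodies (27.7%) had a highest share at least 2-fold above their lowest. The first was I-A-I-E, the class II molecules, whose share in cluster 17 was 20.4 times that in cluster 0. CD115 followed with a 7.11-fold range, CD16-32 with 6.24-fold, Ly-6C with 4.23-fold and CD16.2 with 4.04-fold. CD14, the co-receptor for lipopolysaccharide, ranged 3.003-fold, the integrin beta chain CD18 2.97-fold, the adhesion receptor CD97 2.81-fold and the adhesion molecule CD54 (ICAM-1) 2.80-fold. CD88, the receptor for complement C5a, ranged 2.43-fold, H-2 2.19-fold, Sca-1 2.16-fold and IL23R 2.04-fold. IL23R was the last inside the 2-fold limit, and the integrin chain CD49f, at 1.999-fold, was the first outside it. Relative to the panel median the range was 2-fold or more for 9 antibodies, of which 8 were among the 13 and the other was CD36. Without the deeper tumor-bearing blood library 11 antibodies ranged 2-fold or more, and without cluster 17 10 did.

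**Figure D1:**
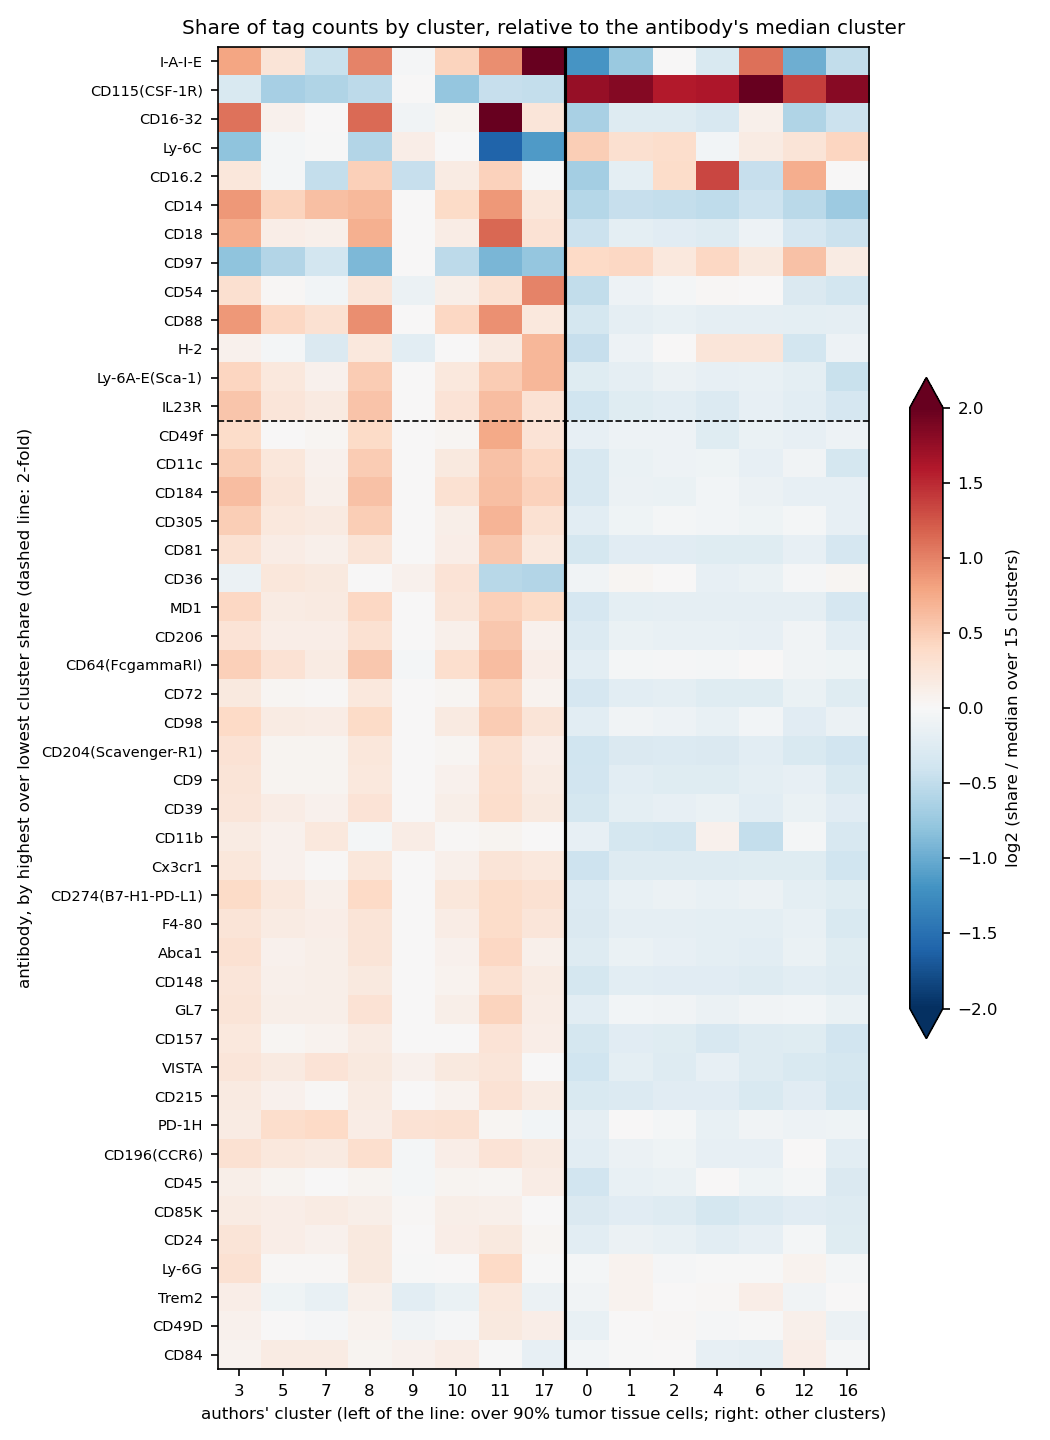
Share of tag counts of 46 antibodies (rows) in 15 clusters (columns), as log2 of the share over the antibody's median cluster, with colours saturating at 4-fold. CD115 and CD97 are low in the tumor tissue clusters left of the line, I-A-I-E peaks in cluster 17 and CD16.2 in cluster 4, and the rows below the dashed line stay within 2-fold.

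The clearest split between the tumor tissue clusters and the others was in CD115. Its share was 1.32% to 2.25% in the 8 tumor tissue clusters, lowest in cluster 10 and highest in cluster 9, against 5.88% to 9.38% in the 7 others, lowest in cluster 12 and highest in cluster 6. The ranges did not overlap. CD97, which binds CD55 on neighbouring cells, was likewise 1.04% to 1.95% in the tumor tissue clusters and 2.17% to 2.91% in the others. These were the 2 of 47 antibodies (4.26%) whose tumor tissue clusters all lay below the others. In the other direction, 29 of 47 (61.7%) had every tumor tissue cluster above every other cluster, a count that carries the shift of the whole panel. Relative to the panel median, 4 antibodies (8.51%) remained wholly above, CD14, IL23R, CD81 and MD1, and 5 (10.6%) lay wholly below, CD115, CD97, Trem2, CD49D and Ly-6G. The shares of Trem2, CD49D and Ly-6G themselves overlapped. They were 1.07% to 1.44%, 1.34% to 1.61% and 0.54% to 0.72% in the tumor tissue clusters. In the other clusters they were 1.18% to 1.36%, 1.27% to 1.52% and 0.53% to 0.58%. CD14 was 0.75% to 1.36% in the tumor tissue clusters and 0.45% to 0.56% in the others.

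Among the tumor tissue clusters, cluster 9 came nearest to the others in these tags. It had the highest CD115 (2.25%), CD97 (1.95%) and Ly-6C (26.2%) of the 8 and the lowest CD14 (0.75%) and CD88 (0.81%). Of its 208 cells, 198 came from tumor tissue, 3 from tumor-bearing blood, 2 from tumor-bearing spleen, 3 from naive blood and 2 from naive bone marrow. In its tumor tissue cells alone, CD115 was 1.99% and CD97 1.76%.

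Within the tumor, CD16-32 and Ly-6C differed between sets of clusters. Clusters 3, 8 and 11, the 3 with the most macrophage-gene RNA, had 6.16%, 6.34% and 11.5% CD16-32 and 13.6%, 15.9% and 7.93% Ly-6C. Clusters 5, 7, 9 and 10 had 2.76% to 3.05% CD16-32 and 23.4% to 26.2% Ly-6C, so the share of neither tag overlapped between these 2 sets. Of the 47 antibodies, 37 (78.7%) lay wholly above in clusters 3, 8 and 11 and 5 (10.6%) wholly below, so non-overlap was the rule and the size of the gap differed. Mean Ly-6C counts per tumor tissue cell did overlap, at 293, 456 and 715 in clusters 3, 8 and 11. In clusters 5, 7, 9 and 10 they were 397, 360, 295 and 365. Cluster 17, the eighth tumor tissue cluster, fell in neither set, with 3.41% CD16-32 and 10.9% Ly-6C. CD18 followed CD16-32, at 1.46%, 1.45% and 1.96% in clusters 3, 8 and 11 and 0.89% to 0.98% in clusters 5, 7, 9 and 10. CD88 was 1.49%, 1.55% and 1.53% in clusters 3, 8 and 11 and 0.81% to 1.09% in the other 4. Over the 8 tumor tissue clusters 5 of 47 antibodies (10.6%) ranged 2-fold or more, I-A-I-E, CD16-32, Ly-6C, CD18 and CD54. With only tumor tissue cells counted there were 6 (12.8%), CD16.2 being the sixth at 2.24-fold.

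Cluster 11 carried more of every tag per cell. Its mean counts per cell were 2.05 times (Ly-6C) to 12 times (CD16-32) those of the other tumor tissue clusters, with a median of 5.49 times over the 47 antibodies. A cell of cluster 11 held on average 1035 CD16-32 counts, 1946 CD11b counts and 715 Ly-6C counts, against 182, 578 and 456 in cluster 8, the next highest for each. The low Ly-6C share of cluster 11 stood beside the highest Ly-6C count per cell in the tumor. Its RNA UMIs per cell were also the highest, and the part of cell size or of joined cells in these counts was not tested.

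Class II divided the clusters most. I-A-I-E held 12.6% of the tags in cluster 17 (interval 12.3% to 12.9%), against 1.03% to 2.77% in the other 7 tumor tissue clusters. In single cells of cluster 17 the median was 11.3% with quartiles of 5.74% and 15.8%, and 78.2% of its cells had 5% or more. Cluster 17 also had the highest CD54 (1.45%, against 0.52% to 0.91% in the other 14), H-2 (9.37%, against 4.28% to 6.98%) and Sca-1 (1.60%, against 0.74% to 1.44%). CD11c and CD24, also listed as dendritic cell markers, were not highest there. CD11c was 0.35% in cluster 17 and 0.37% to 0.40% in clusters 3, 8 and 11. CD24 was 1.26% in cluster 17 and 1.46% in cluster 3. Among the clusters from blood, spleen and marrow, cluster 6 was highest with 3.0% I-A-I-E, against 0.62% to 1.40% in the other 6. Its cells were uneven, with a median of 1.18%, quartiles of 0.65% and 2.90% and 9.86% of cells at 5% or more. The 5 B cell genes summed to 514 CPM in cluster 6, the highest of the 15 clusters, with all 5 detected. There the 6 dendritic cell genes, with the class II gene H2-Eb1 on their list, came to 1276 CPM with 5 detected. The part of B cells or dendritic cells in the class II of cluster 6 was not tested.

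CD16.2, an activating Fc receptor, peaked in cluster 4 at 2.94% (interval 2.91% to 2.97%), with 1.93% in cluster 12, 1.63% in cluster 8, 1.60% in cluster 11 and 1.51% in cluster 2. It was lowest in cluster 0 at 0.73%. Cluster 4 was also the lowest of the 7 blood, spleen and marrow clusters in Ly-6C (23.1%, against 26.9% to 33.5%). The genes of the Fc receptors lie side by side on chromosome 1 of GRCm38, with Fcgr2b at chr1:170958617-170976547, Fcgr4 (CD16.2) at chr1:171018920-171029761 and Fcgr3 at chr1:171051174-171064935. Their tags nevertheless peaked in different clusters, CD16.2 in cluster 4 and CD16-32 in cluster 11. Over the 7 clusters from blood, spleen and marrow, CD16.2 and I-A-I-E were the 2 of 47 antibodies (4.26%) that ranged 2-fold or more. The same 2 did so inside each of tumor-bearing blood, tumor-bearing spleen, naive blood and naive spleen (4.26% in each). Cluster 4 was highest in CD16.2 in each of them, at 3.91% in tumor-bearing blood, 2.83% in tumor-bearing spleen, 2.13% in naive blood and 2.06% in naive spleen.

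By the largest and smallest ratios to the median cluster, clusters 0, 1 and 16 were alike. They led with CD115 (7.54%, 8.05% and 7.89%), Ly-6C (33.5%, 29.97% and 32.1%) and CD97 (2.56%, 2.59% and 2.17%). At the low end, I-A-I-E was 0.62%, 0.84% and 0.997%, with CD16.2 and CD16-32 low in cluster 0, CD14 (0.54%) and CD11b (16.3%) in cluster 1, and CD14 (0.45%) and Sca-1 (0.74%) in cluster 16. Cluster 2 led with CD115 (6.77%), CD16.2 (1.51%) and Ly-6C (30.4%) and had its own smallest ratios in CD14, CD11b and CD204. Cluster 4 led with CD115 (6.88%), CD16.2 and CD97 (2.58%), with CD14, CD85K and CD16-32 at its low end. Cluster 6 led with CD115 (9.38%), I-A-I-E and H-2 (6.98%) and was low in CD11b (14.8%, the lowest of all), CD16.2 (0.85%) and CD14. These CD11b shares pool libraries that differ. In cluster 1 CD11b was 23.5% in tumor-bearing and 19.4% in naive blood, against 10.4% and 6.54% in tumor-bearing and naive spleen. In cluster 2 it was 21.0% and 20.6%, against 9.46% and 8.65%. Cluster 12, the one with neutrophil RNA, led with CD115 (5.88%), CD16.2 and CD97 (2.91%) and was low in I-A-I-E (0.71%), CD16-32 (1.91%) and CD14 (0.51%).

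Among the tumor tissue clusters, cluster 3 led with CD16-32, CD88 and CD14 and was low in Ly-6C, CD97 and CD115. Cluster 8 led with CD16-32, I-A-I-E (2.77%) and CD88, and cluster 11 with CD16-32, CD18 and I-A-I-E (2.66%). Both were low in Ly-6C and CD97, joined by CD115 (1.56%) in cluster 8 and by CD36 (2.81%) in cluster 11. Clusters 5 and 10 shared CD14 (1.02% and 0.97%) and CD88 (1.09% in each) at the top and CD115, CD97 and Trem2 at the bottom, joined at the top by PD-1H (1.63%) in cluster 5 and by I-A-I-E (1.90%) in cluster 10. Cluster 7 led with CD14 (1.13%), PD-1H (1.69%) and CD88 (1.005%) and was low in CD115, CD16.2 and I-A-I-E. Cluster 9 led with PD-1H (1.56%), CD11b and Ly-6C and was low in CD16.2, Trem2 and H-2 (5.12%). Cluster 17 was low in Ly-6C (10.9%), CD97 (1.14%) and CD36 (2.74%).

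The remaining 34 antibodies ranged less than 2-fold over the clusters, down to 1.26-fold for CD84. Of the integrins, CD11b ran from 14.8% to 23.9%, the alpha chain CD11c from 0.21% to 0.40%, CD49f from 0.63% to 1.26% and CD49D from 1.27% to 1.61%. Of the GPI-anchored proteins, Ly-6G, a neutrophil protein, ran from 0.53% to 0.72%, CD24 from 1.03% to 1.46% and CD157 from 0.59% to 0.92%. Of the scavenger and Fc receptors, CD36 ran from 2.74% to 4.99%, the high-affinity Fc receptor CD64 from 0.79% to 1.39%, CD204 from 0.56% to 0.92% and the mannose receptor CD206 from 0.76% to 1.34%. The chemokine and cytokine receptors Cx3cr1, CD184 (CXCR4), CD196 (CCR6) and CD215 lay between 0.25% and 0.68% in every cluster. The checkpoint ligand PD-L1 (CD274) ran from 0.76% to 1.22% and CD39, an enzyme that breaks down extracellular ATP, from 0.64% to 1.05%. The receptors CD305, CD85K, CD72 and Trem2 ran 1.87-, 1.42-, 1.72- and 1.35-fold. CD45, the common leukocyte phosphatase, ranged 1.44-fold, CD148 1.58-fold, F4-80 1.60-fold, the tetraspanins CD9 and CD81 1.65- and 1.86-fold, the amino acid transporter chain CD98 1.67-fold, the cholesterol exporter Abca1 1.59-fold, MD1 1.77-fold and the carbohydrate epitope GL7 1.58-fold.

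Most pairs of tags varied alike. Over the 15 clusters, 400 of the 1081 pairs of antibodies (37.0%) had a Pearson r above 0.9 between their log2 shares, and the median r was 0.75. After each cluster was set relative to its panel median, 11 pairs had an r above 0.9 and the median was 0.01. These points share their cells and their denominator, so r describes the table and is no test. Relative to the panel median, the 2 antibodies most like I-A-I-E were CD54 (r = 0.86) and Sca-1 (r = 0.80), and those most like CD16-32 were CD18 (r = 0.98) and CD305 (r = 0.85). For CD115 they were Trem2 (r = 0.96) and CD49D (r = 0.94), and for Ly-6C they were CD84 and CD36 (r = 0.95 each). CD16.2 had no close match, with CD39 first at r = 0.55. In shares Trem2, CD49D and CD84 ranged 1.35-, 1.27- and 1.26-fold, so their relative values carry the panel median of each cluster. On shares, those most like CD115 were CD97 (r = 0.89) and Ly-6C (r = 0.64). For Ly-6C they were CD97 (r = 0.81) and CD36 (r = 0.71).

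By their names, 2 antibodies of the panel share a target. VISTA and PD-1H are both names of the product of Vsir, a checkpoint receptor of myeloid cells, but their clones and epitopes are not stated in the labels. PD-1H had 1.31% and VISTA 1.16% of all counts. The ratio of PD-1H to VISTA over the 15 clusters ran from 0.91 in cluster 11 to 1.27 in cluster 16, and their log2 shares had r = 0.83 over these clusters (r = 0.61 relative to the panel median). Both were highest in cluster 7, PD-1H at 1.69% and VISTA at 1.45%. Over the 7 libraries the ratio of PD-1H to VISTA ran from 1.04 to 1.39.

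Across the 7 libraries, tumor tissue had the highest share of 31 of 47 antibodies (66.0%) and the lowest of 3 (6.38%), Ly-6C, CD115 and CD97. CD115 had 1.62% in tumor tissue, against 7.71% in blood, 5.43% in bone marrow and 6.59% in spleen of tumor-bearing mice and 9.06%, 8.32% and 4.82% in naive blood, bone marrow and spleen. CD16-32 had 6.54% in tumor tissue, against 1.98%, 1.93% and 2.68% in blood, bone marrow and spleen of tumor-bearing mice and 2.42%, 2.01% and 2.72% in the naive ones. CD97 had 1.18% in tumor tissue and 2.23% to 3.04% in the other 6 libraries. CD14 had 1.204% in tumor tissue and 0.48% to 0.64% in the other 6. These 4 tags are thus among the 34 for which tumor tissue lay outside the range of the other libraries.

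**Figure D2:**
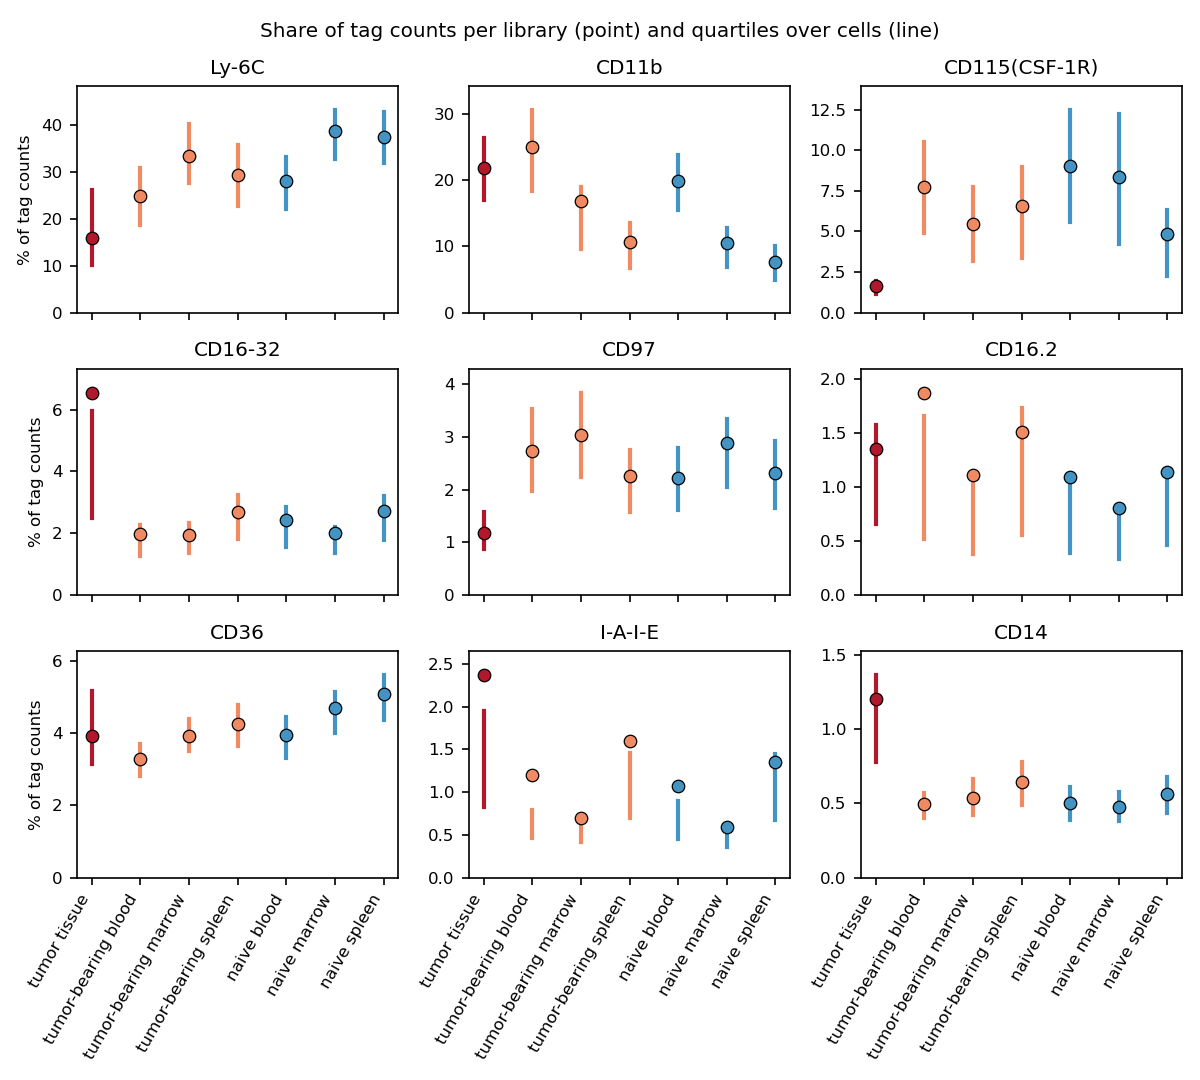
Share of tag counts (y axes, %) of 9 antibodies in the 7 libraries (x axis), as points, with vertical lines for the quartiles over single cells; red is tumor tissue, orange the tumor-bearing tissues and blue the naive tissues. CD115 sits at 1.62% in tumor tissue and at 4.82% or more elsewhere, while CD11b is high in blood and tumor and low in spleen in either state.

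Tumor tissue was compared with each tumor-bearing tissue to show how cells in the tumor differ from those outside it, and the 3 comparisons share the tumor tissue library. Against tumor-bearing blood, 4 of 47 antibodies (8.51%) were at least 2-fold higher, CD16-32 (3.31-fold, interval 3.28 to 3.34), CD14 (2.44-fold), CD88 (2.06-fold) and CD18 (2.05-fold). In the same comparison 2 (4.26%) were at least 2-fold lower, CD115 (4.77-fold lower) and CD97 (2.30-fold lower). Against tumor-bearing spleen, 2 (4.26%) were higher, CD16-32 (2.44-fold) and CD11b (2.07-fold), and 1 (2.13%) was lower, CD115 (4.08-fold lower). Against tumor-bearing bone marrow, a library of 57 cells, 4 (8.51%) were higher, I-A-I-E and CD16-32 (3.39-fold each), CD14 (2.25-fold) and CD18 (2.01-fold). There, 3 (6.38%) were lower, CD115 (3.36-fold lower), CD97 (2.57-fold lower) and Ly-6C (2.10-fold lower).

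The panel as a whole was shifted in these comparisons, with a median log2 ratio of 0.56 against blood, 0.12 against spleen and 0.43 against bone marrow. Relative to that median, CD16-32 was 2.25-fold higher in tumor tissue than in blood, 2.26-fold higher than in spleen and 2.52-fold higher than in bone marrow. CD115 was 7.03-, 4.42- and 4.53-fold lower, CD97 3.39-, 2.07- and 3.46-fold lower. CD11b changed side, with a log2 ratio relative to the median of -0.75 against blood, 0.93 against spleen and -0.05 against bone marrow. Of the 47 antibodies, 36 against blood, 37 against spleen and 36 against bone marrow lay within 1.25-fold of the median.

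Cluster 11 weighed on these ratios. Without its cells tumor tissue had 4.69% CD16-32, 18.9% Ly-6C and 1.22% CD18, against 6.54%, 15.9% and 1.42% with them. The antibodies at least 2-fold higher were then 2 against blood, 1 against spleen and 3 against bone marrow, and those at least 2-fold lower 2, 1 and 2, with CD18 and CD88 under the limit against blood and CD16-32 under it against spleen at 1.75-fold. Against bone marrow CD18 and Ly-6C came under the limit. CD115 without cluster 11 was 1.61%, so its ratio stayed at 0.21 against blood, 0.24 against spleen and 0.30 against bone marrow.

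**Figure D3:**
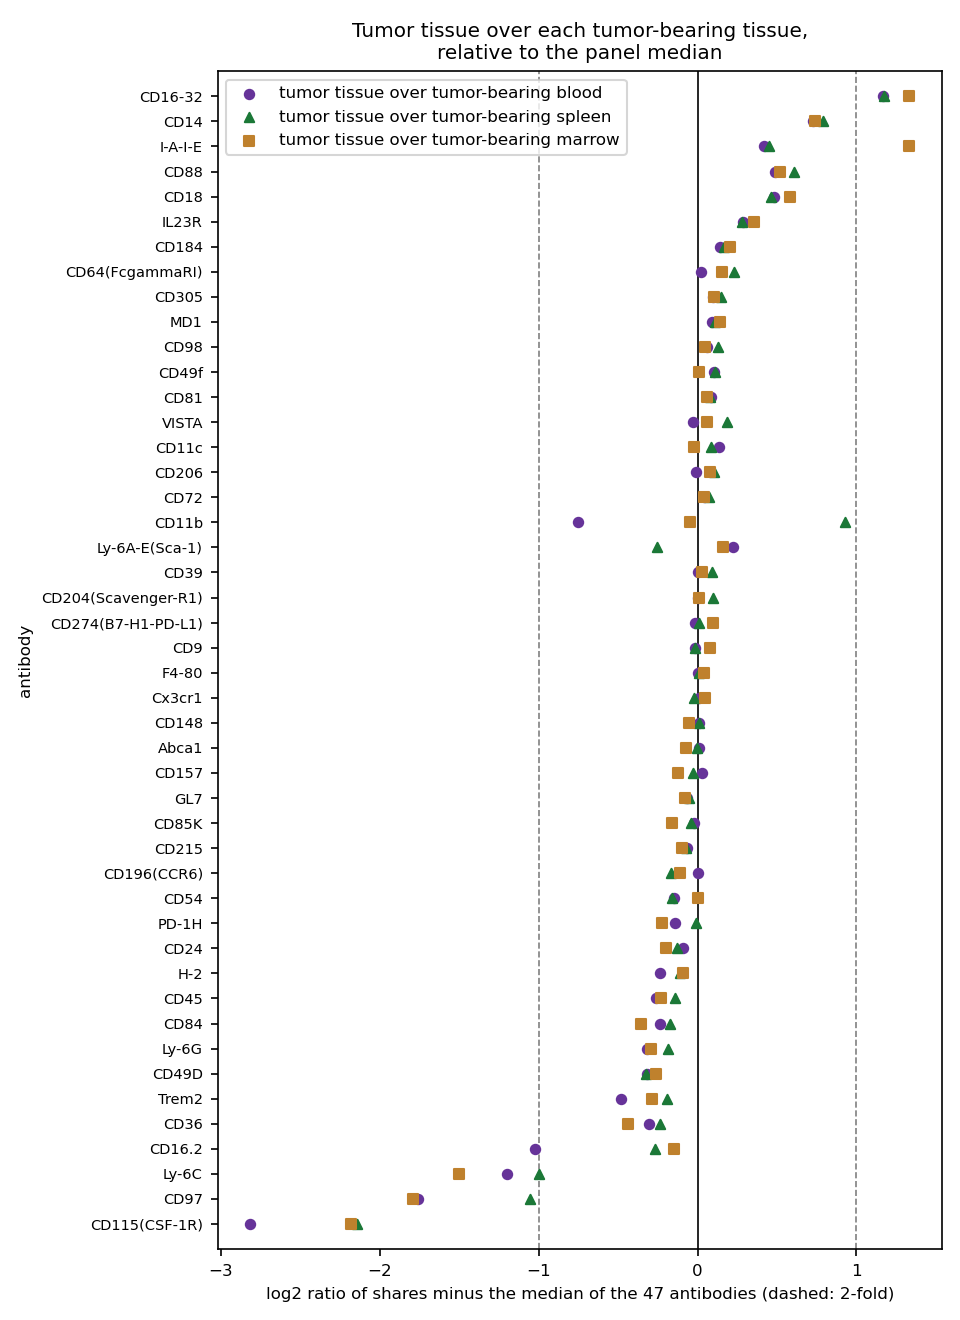
Log2 ratio of shares, tumor tissue over tumor-bearing blood (circles), spleen (triangles) and bone marrow (squares), minus the median of 47 antibodies in that comparison (x axis); rows are 46 antibodies. CD16-32 lies beyond 2-fold at the top, CD115 and CD97 at the bottom, and CD11b spreads from -0.75 to 0.93.

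The tumor-bearing and naive states were compared within blood, bone marrow and spleen, and no antibody reached 2-fold. In blood, 0 of 47 (0%) were 2-fold higher and 0 (0%) 2-fold lower, and the same held in bone marrow (0% and 0%) and spleen (0% and 0%). The largest ratio in blood was CD16.2, with 1.87% in tumor-bearing blood and 1.096% in naive blood (ratio 1.71, interval 1.68 to 1.74). CD11b (25.1% in tumor-bearing and 19.9% in naive blood) and CD97 (2.73% and 2.23%) were next. At the low end in blood were CD16-32 (1.98% in tumor-bearing and 2.42% in naive), CD36 (3.28% and 3.95%) and H-2 (4.97% and 5.84%). The median log2 ratio of the panel in blood was 0.01, and 45 of 47 antibodies lay within 1.25-fold of it.

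In bone marrow CD11b was 1.60-fold higher, with 16.8% in the tumor-bearing and 10.5% in the naive library. CD16.2 had 1.11% in tumor-bearing and 0.80% in naive marrow, while its median over cells was 0.513% and 0.550%. The next was CD215, the interleukin-15 receptor alpha chain, with 0.49% in tumor-bearing and 0.37% in naive marrow. CD115 had the lowest ratio at 0.65, with 5.43% in tumor-bearing and 8.32% in naive marrow, followed by CD36 (3.93% and 4.69%) and Ly-6C (33.4% and 38.7%). These rest on 57 tumor-bearing and 153 naive cells. The median log2 ratio of the marrow panel was 0.14.

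In spleen Sca-1, a Ly-6 family protein induced by interferons, was 1.40-fold higher, with 1.45% in tumor-bearing and 1.03% in naive spleen. CD11b (10.6% and 7.62%) and CD115 (6.59% and 4.82%) were next. Ly-6C had the lowest ratio at 0.78, with 29.3% in tumor-bearing and 37.4% in naive spleen, followed by CD36 (4.25% and 5.08%) and H-2 (6.19% and 6.72%). The median log2 ratio in spleen was 0.22, and relative to it Ly-6C was 1.49-fold lower and Sca-1 1.203-fold higher. CD115 was thus lower in tumor-bearing blood and marrow and higher in tumor-bearing spleen than in the naive libraries, with ratios of 0.85, 0.65 and 1.37.

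CD11b and CD36 kept 1 side in the 3 tissues. CD11b was higher in the tumor-bearing library in each, by 1.26-, 1.60- and 1.39-fold in blood, bone marrow and spleen, and CD36 lower in each, at ratios of 0.83, 0.84 and 0.84. Of the 47 antibodies, 23 had a higher share in the tumor-bearing library of all 3 tissues and 5 a lower one. That count carries the shift of the panel, and relative to the panel median 0 antibodies were 1.25-fold or more to 1 side in all 3 tissues. CD11b was the handle of the enrichment, so its level was set among cells already selected for it. It also differed between tissues of 1 state, from 25.1% in tumor-bearing blood to 10.6% in tumor-bearing spleen and from 19.9% in naive blood to 7.62% in naive spleen.

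The tumor-bearing over naive comparison was repeated inside clusters with at least 50 cells in both libraries, 4 clusters in blood (0, 1, 2 and 4) and 5 in spleen (0, 1, 2, 4 and 6). In blood 1 of 188 ratios (0.532%) passed 2-fold, and in spleen 0 of 235 (0%). CD16.2 was higher in tumor-bearing blood in all 4 clusters, at 0.81%, 1.23%, 1.96% and 3.91% in clusters 0, 1, 2 and 4, against 0.60%, 0.82%, 1.16% and 2.13% in naive blood. Its ratio ran from 1.33 to 1.83. Of the 47 antibodies, 12 (25.5%) were higher and 9 (19.1%) lower in all 4 clusters of blood, and 39 (83.0%) were higher and 3 (6.38%) lower in all 5 of spleen. In spleen CD16.2 was also higher in each cluster, with ratios from 1.17 to 1.92, beside a panel median shift of 0.16 to 0.20 on the log2 scale. The RNA of its gene, Fcgr4, was 68 CPM in tumor-bearing and 40 CPM in naive blood, and 50 and 36 CPM in tumor-bearing and naive spleen. Tumor tissue had the most Fcgr4 RNA, 143 CPM, but tumor-bearing blood had the highest CD16.2 tag. Over the 15 clusters the Pearson r of RNA and tag on log2 scales was 0.48, and 0.23 relative to the panel median. Fcgr4 was 82 CPM in cluster 4, where the tag peaked, and 287 CPM in cluster 8, with 1.63% of the tag.

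Ly-6C was lower in tumor-bearing spleen in all 5 clusters, at 33.6%, 30.1%, 30.6%, 24.1% and 25.3% in clusters 0, 1, 2, 4 and 6, against 40.8%, 38.4%, 37.5%, 32.8% and 35.9% in naive spleen. The highest tumor-bearing value, 33.6% in cluster 0, lay above the lowest naive value, 32.8% in cluster 4, so the order held within clusters. Sca-1 in these clusters was 1.32% to 1.59% in tumor-bearing and 0.94% to 1.14% in naive spleen, so the ranges did not overlap. The same held for 24 of 47 antibodies (51.1%) in spleen with tumor-bearing wholly above, beside the shift of the panel, and for 1 (2.13%) wholly below, CD36. In blood the ranges lay apart for 3 (6.38%) above and 1 (2.13%) below, again CD36. CD36 was lower in the tumor-bearing library in all 9 cluster comparisons, with ratios from 0.77 to 0.90. Ly-6C and CD84 were also lower in all 9. Ly-6C ratios were 0.77 to 0.94 in blood and 0.71 to 0.82 in spleen, and CD84 ratios 0.86 to 0.98 and 0.91 to 0.97. The 1 ratio past 2-fold was I-A-I-E in cluster 2 of blood, with 1.82% in tumor-bearing and 0.82% in naive cells. Cells with 5% or more numbered 4 of 57 in that tumor-bearing group and 0 of 132 in the naive group, while the medians over cells were 0.70% and 0.62%.

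CD11b differed between blood and spleen within clusters. In clusters 0, 1, 2 and 4 it was 21.0% to 29.9% in tumor-bearing blood and 9.46% to 13.3% in tumor-bearing spleen, and 19.4% to 21.2% in naive blood and 6.54% to 9.04% in naive spleen. Every blood value lay above every spleen value of either state. CD11b was the 1 of 47 antibodies (2.13%) wholly above in tumor-bearing blood against tumor-bearing spleen, and 1 of 3 (6.38%) in the naive libraries. Most antibodies ran the other way, with 36 (76.6%) wholly below in tumor-bearing blood and 29 (61.7%) in naive blood. Sca-1 was one of them, at 0.73% to 0.82% in tumor-bearing blood and 1.32% to 1.59% in tumor-bearing spleen in these clusters. These comparisons of blood with spleen are of shares only and were not set relative to a panel median. Itgam RNA was 267 CPM in tumor-bearing blood and 293 CPM in tumor-bearing spleen.

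**Figure D4:**
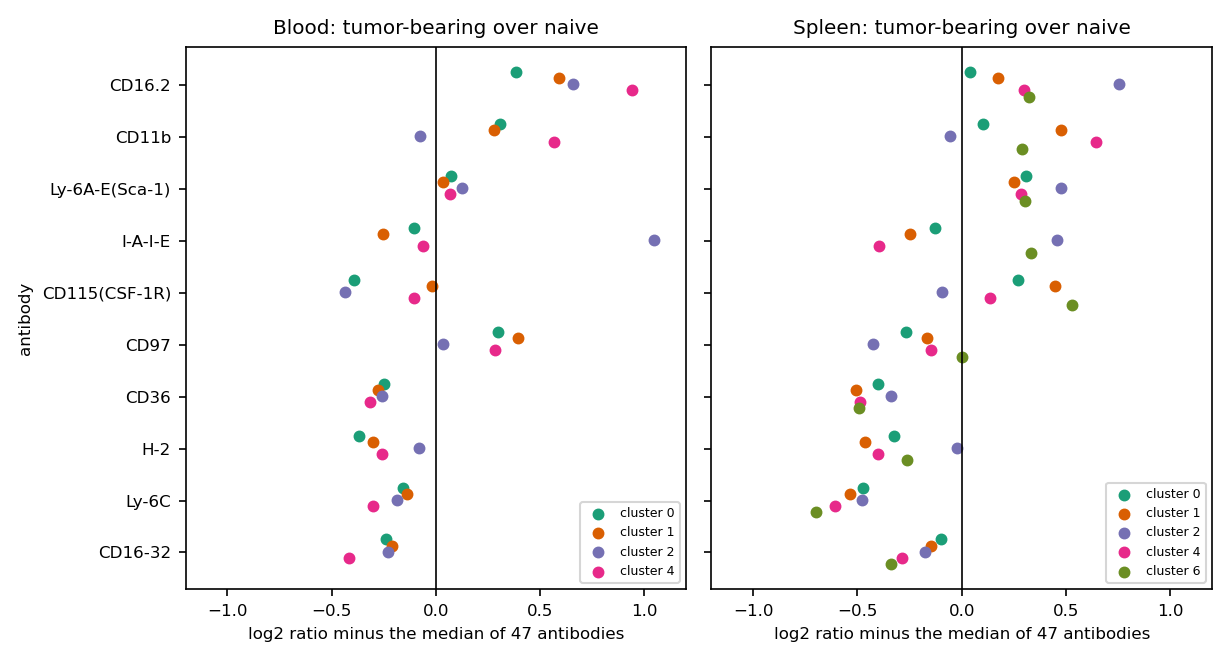
Log2 ratio of shares, tumor-bearing over naive, minus the median of 47 antibodies (x axis), for 10 antibodies (rows) inside 4 clusters of blood (left) and 5 clusters of spleen (right). CD16.2 lies right of 0 in every cluster and CD36 left of it, while I-A-I-E and CD115 fall on both sides.

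RNA was set beside the tags for the 46 antibodies with a target gene, all 49 genes being in the table. The relation over the 15 clusters differed widely between antibodies. Class II RNA, H2-Aa with H2-Ab1, ran from 102 CPM in cluster 12 to 14486 CPM in cluster 17, and its Pearson r with the I-A-I-E tag was 0.92 on log2 scales. Cd14 RNA ran from 12.3 CPM in cluster 4 to 3669 CPM in cluster 7, a 297-fold range beside a 3.003-fold range of the CD14 tag (r = 0.92). Adgre5, which encodes CD97, ran from 142 CPM in cluster 17 to 864 CPM in cluster 4 (r = 0.92). Of the 36 antibodies with over 3 target UMIs in every cluster and at least 100 in all, the RNA range was wider than the tag range in 32 and narrower in 4, CD115, CD16-32, H-2 and CD18.

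For CD115, tumor tissue had a lower tag beside RNA that differed less. Csf1r RNA was 539 CPM in tumor tissue, 693 CPM in tumor-bearing blood, 622 in tumor-bearing bone marrow and 771 in tumor-bearing spleen, beside a CD115 tag 3.36- to 4.77-fold lower in tumor tissue. Ly6c1 with Ly6c2 came to 1333 CPM in tumor tissue, 1253 CPM in tumor-bearing blood, 1294 CPM in tumor-bearing spleen and 2332 CPM in tumor-bearing bone marrow, while the Ly-6C tag was 15.9%, 24.8%, 29.3% and 33.4%. For Ly-6C the RNA was thus close between tumor tissue, blood and spleen, whereas against bone marrow both RNA and tag were lower in tumor tissue. Among the tumor tissue clusters, cluster 8 had 2215 CPM of Ly6c1 and Ly6c2 RNA with 15.9% of the tag, and cluster 9 had 941 CPM with 26.2%. Mean Ly-6C counts per tumor tissue cell were 456 in cluster 8 and 295 in cluster 9, but these counts follow tag depth. The median tumor tissue cell held 2262.5 tag counts in cluster 8 and 1084 in cluster 9. Relative to the other tumor tissue clusters, mean counts of every tag were at least 1.08-fold in cluster 8 and at most 0.77-fold in cluster 9. Any tag would give that order, so the counts cannot show whether Ly-6C followed its RNA. Over the 15 clusters r was 0.60 for CD115 and 0.36 for Ly-6C.

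**Figure D5:**
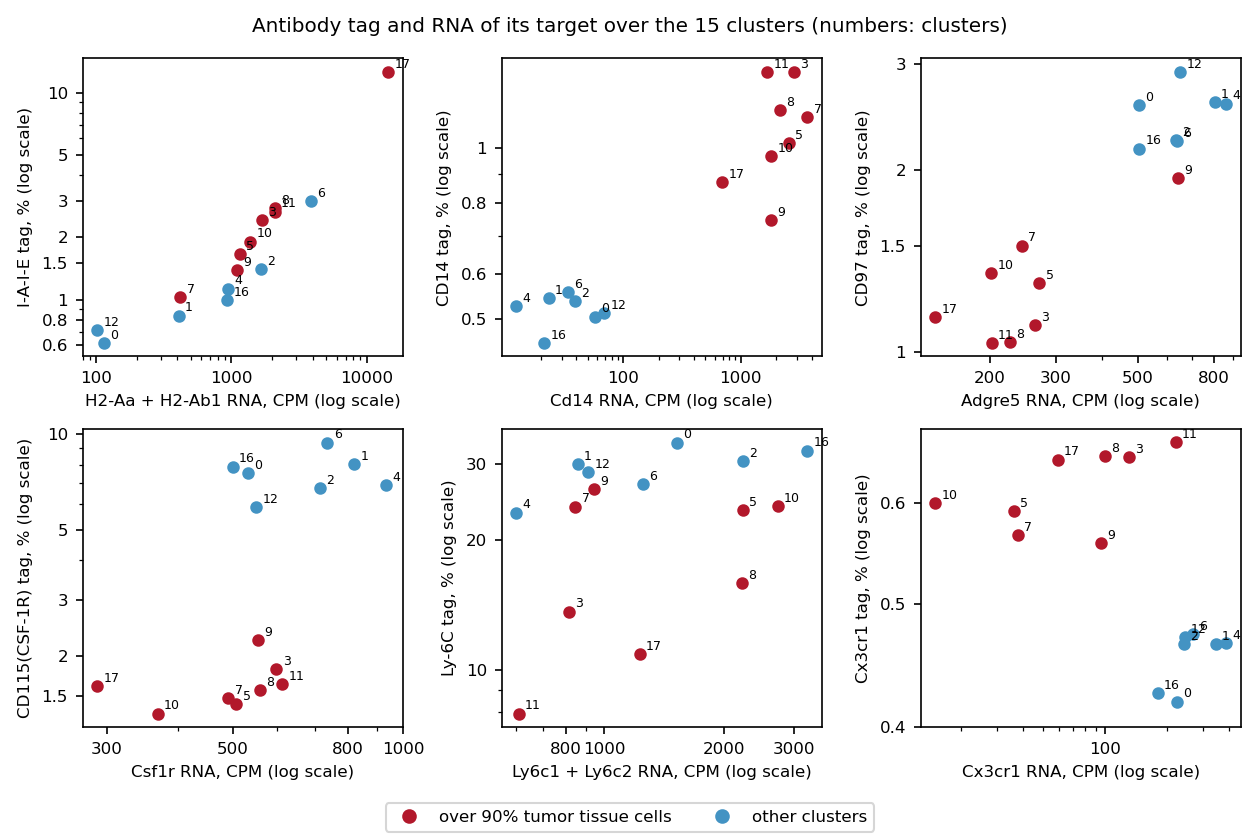
Tag share (y axes, %, log scale) against RNA of the target (x axes, CPM, log scale) for 6 antibodies over 15 numbered clusters; red points are tumor tissue clusters and blue the others. The I-A-I-E tag is highest where its RNA is highest, in cluster 17, CD115 is lower in every tumor tissue cluster while Csf1r RNA overlaps in part, and the Cx3cr1 tag is higher where its RNA is lower.

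Of the 44 antibodies with at least 100 target UMIs, 27 had an r over 0.5 and 11 an r below 0, and relative to the panel median 19 and 9. The Cx3cr1 tag was 0.42% to 0.47% in the 7 blood, spleen and marrow clusters, where Cx3cr1 RNA was 180 to 388 CPM, and 0.56% to 0.67% in the tumor tissue clusters, where RNA was 15 to 221 CPM (r = -0.58, and -0.60 relative to the panel median). MD1, CD148 and VISTA were also negative (r = -0.72, -0.65 and -0.61), at -0.66, -0.60 and -0.15 relative to the panel median. CD45 and CD49D turned, at r = -0.54 and -0.51 on shares and 0.81 and 0.91 relative to the median. The Ly-6G tag was 0.58% in cluster 12, where Ly6g RNA was highest at 44.9 CPM, against 0.53% to 0.72% in the other clusters. In the 9 cells of cluster 12 with Ly6g RNA it was 0.51% and in the other 74 cells 0.59%. In the 15 cells of cluster 12 with at least 100 S100a8 UMIs it was 0.57%. IL23R had 0.99% of all tags and the 13th widest range, while Il23r had no UMI in 4290 cells, which allows a share of up to 0.0699% of cells with a UMI. CD196 had 0.25% to 0.37%, with 10 Ccr6 UMIs in all cells. CD36 held 3.95% of the tags with 796 Cd36 UMIs in 399 cells. No isotype control is among the 47 antibodies, so the background of each tag was not measured here.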

How the data were processed

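Antibody tags and RNA were measured in 7 libraries of CD11b-enriched cells, 1 per group, grouped by the labels' tissue and disease state. Per the submitters' processing notes, Cell Ranger and mm10 were used. No version, annotation, cell filter or doublet treatment is given in the sources used here. Deposited by the authors were tag counts and RNA counts per cell and normalized tag values that equal the natural log of 1 plus counts per 10000 of a cell. Per the file headers, the metadata give library, cluster at resolution 1, total counts and a mitochondrial fraction. The 237 metadata cells without counts were not used. Doublets were not called, and an alternative dropped each library's top 2% of cells by tag count.

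Tag counts were summed over cells and divided by the sum over the 47 antibodies. An antibody needed 30 counts in the 2 libraries compared, which all 47 had, and was called at 2-fold. Since a group is 1 library, no test was run and no p-value is given. Ratios carry exact 95% conditional binomial intervals and shares 95% Clopper-Pearson intervals. Clusters needed 50 counted cells. Named antibodies were all past 2-fold, or the 3 largest ratios either way, and for each cluster the 3 largest and 3 smallest ratios to the median cluster. The antibodies, lists and rules were chosen with earlier results of these data known. The values of 1 antibody are not reported here, though it is kept in every total and count. Ratio functions were tested on simulated data. The alternatives were mean per-cell shares, back-transformed normalized values, a denominator without Ly-6C, cells thinned to 946 tags (3861 cells kept), equal mixes of clusters with 10 cells in both libraries and no count minimum. Python 3.11.15, numpy 2.4.6, pandas 2.3.3, scipy 1.17.1 and matplotlib 3.10.9 were used. Gene positions are from GENCODE on GRCm38, the assembly that mm10 names, and Vsir was matched to the older symbol in the RNA table through RefSeq synonyms.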

Additional observations from a re-analysis of the deposited data

How the results depend on the processing

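The counts of antibodies past 2-fold between libraries were small, and several moved by 1 or 2 antibodies. Higher in tumor tissue than in blood were 4 antibodies, 2 with Ly-6C left out of the denominator, 2 with thinned cells, 2 without cluster 11 and 1 relative to the panel median, while those lower were 2, and 4 relative to that median. Higher in tumor tissue than in spleen were 2, and 1 under mean per-cell shares, the deposited normalized values, the denominator without Ly-6C, thinned cells, the panel median and without cluster 11. Lower than in spleen was 1, and 2 without Ly-6C in the denominator or relative to the median. Higher than in bone marrow were 4, and 2 under the normalized values, the denominator without Ly-6C and the median. The cause of these moves was not tested. Settings relative to the panel median, without cluster 11, without cluster 17 and without the tumor-bearing blood library were chosen after seeing the data. Every alternative left 0 antibodies past 2-fold between tumor-bearing and naive libraries, and equal mixes of clusters gave no value for tumor tissue, which shares no cluster of 10 cells with the other libraries. The 13 antibodies that ranged 2-fold over clusters were 9 to 14 under the alternatives. No paired analysis was possible because each group was 1 library. Summed tag counts were lowest in cluster 17 (53281 counts) among the clusters used and in tumor-bearing bone marrow (175339 counts) among the libraries. The median tag count per cell was lowest in tumor tissue (1602) among the libraries, against 2896 in tumor-bearing bone marrow. The spread between mice was not measured.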

Other observations

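Cluster 13, left out of the comparisons for its 40 cells, came wholly from tumor tissue and had a median of 106 tag counts and 1477.5 RNA UMIs per cell. Its summed shares were 16.4% Ly-6C, 14.9% CD11b, 7.46% CD16-32 and 4.68% I-A-I-E. The median cell had 1.29% I-A-I-E.

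Tumor tissue stood apart from the other libraries in Cd14 RNA far more than in its tag, with 2323 CPM in tumor tissue and 32 to 41 CPM in the other 6 libraries, beside tag shares of 1.204% and 0.48% to 0.64%. Ly6a RNA, the gene of Sca-1, was 495 CPM in tumor tissue and 31 CPM in tumor-bearing spleen, while the Sca-1 tag was 1.32% and 1.45%.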
